A study of Mus musculus with 14 samples.

Results

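The simple epithelial keratins Krt7, Krt8, Krt18, Krt19 and Krt20, chosen by name, were examined as a group of 5 genes among the 23174 rows of the expression table. The study followed mouse embryonic stem cells (ESCs) as they were driven towards extraembryonic endoderm (XEN) cells, stem-like cells of the lineage that lines the yolk sac, with and without the zinc finger transcription factor Zfp281. PolyA RNA was sequenced as paired reads of 150 bp in 14 libraries, 1 for each line and stage. The labels give no unit, and values were taken to be FPKM, a level corrected for sequencing depth and for the length of each transcript. Levels of different genes may be set side by side within a library. Between libraries the comparison is less secure, since the FPKM sums ranged from 424406 to 718138. Differences between libraries therefore depend in part on the scaling chosen. The table holds no read counts, so the depth behind each value is unknown and no counting interval could be given.

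The course holds 4 ESC lines at 3 stages. The line 3WT carries Zfp281. The lines 3.34Null and 2.6Null are Zfp281 knockouts (KO), and the cell line field of the latter disagrees with its title, which is used here. The line 3.34Null-Rescue is 3.34Null with Zfp281 put back, so 3WT and the rescue line are called Zfp281-present below, and the rescue is not independent of 3.34Null. Stage ESC is the undifferentiated culture on gelatin with LIF. Stage cXENp1 followed 48 h in 10 ng/mL activin A plus 0.01 µM retinoic acid, and stage cXENp3 came after a further passage on mouse embryonic fibroblast feeders and a return to gelatin. XENB1 and XEN5 are established XEN lines, kept in medium conditioned by fibroblasts, and XENB1 is labelled with strain 129S1 where all other samples carry 129S1/SVImJ. Nothing in the labels says that libraries came from separate cultures, so each line stands for 1 replicate of its genotype. The p-values rest on the spread between lines that each fit leaves, pooled over its groups.

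Keratins build the intermediate filaments of epithelial cells. A filament forms from pairs of 1 type I and 1 type II chain, so every epithelial cell needs a keratin of each type, and an unpaired chain is usually degraded. Krt8 (type II) and Krt18 (type I) are the first pair made in the embryo, in trophectoderm and primitive endoderm, and both are commonly used to mark extraembryonic endoderm. Krt7 (type II) and Krt19 (type I) join them in ducts and many simple epithelia. Krt20 (type I) is best known from intestinal and gastric surface cells and from the umbrella cells of the bladder.

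The genes lie in both keratin clusters. On mm9, the build named in the submitters' processing notes, the type II genes Krt7 (XLOC_006916, chromosome 15, 101242834 to 101258237) and Krt8 (XLOC_007391, chromosome 15, 101827142 to 101834773) stand 568.9 kb apart. The type I gene Krt18 (XLOC_006921, chromosome 15, 101858647 to 101862457) sits in the type II cluster, 23.9 kb from Krt8, with no other gene of the table between them. The other type I genes, Krt20 (XLOC_003796, chromosome 11, 99289717 to 99299467) and Krt19 (XLOC_003834, chromosome 11, 100002126 to 100007233), lie 702.7 kb apart in the type I cluster. RefSeq lists a Krt8 pseudogene, Krt8-ps, which is no row of the table, and fragments shared with such a near-identical copy make the Krt8 level uncertain to an unknown degree.

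The promoters are shown because Krt8 and Krt18 kept together across the libraries while Krt7 and Krt20 did not follow them. RefSeq (GRCm38.p6) gave a promoter for 4 of the 5 genes, all except Krt19. Each sequence is the 250 bases before the annotated start, read 5′ to 3′ on the gene's strand, and capitals mark every match, on both strands, to the TATA box (searched as TATAAA), the AP-1 motif (TGANTCA), the GC box (GGGCGG), the GATA factor motif (searched as AGATAA) and the AP-2 motif (GCCNNNGGC).
Krt8, chr15:102004343-102004592, minus strand: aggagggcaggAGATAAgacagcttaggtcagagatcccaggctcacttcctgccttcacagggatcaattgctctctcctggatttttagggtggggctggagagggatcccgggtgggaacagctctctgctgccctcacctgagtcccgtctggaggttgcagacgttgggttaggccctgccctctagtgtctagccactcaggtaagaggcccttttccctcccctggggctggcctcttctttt
Krt18, chr15:102027966-102028215, plus strand: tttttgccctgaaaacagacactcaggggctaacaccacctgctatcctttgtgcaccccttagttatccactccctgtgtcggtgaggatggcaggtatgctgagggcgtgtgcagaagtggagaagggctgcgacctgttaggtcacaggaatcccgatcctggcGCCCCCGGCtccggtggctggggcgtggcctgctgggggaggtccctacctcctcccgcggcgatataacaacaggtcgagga
Krt7, chr15:101412153-101412402, plus strand: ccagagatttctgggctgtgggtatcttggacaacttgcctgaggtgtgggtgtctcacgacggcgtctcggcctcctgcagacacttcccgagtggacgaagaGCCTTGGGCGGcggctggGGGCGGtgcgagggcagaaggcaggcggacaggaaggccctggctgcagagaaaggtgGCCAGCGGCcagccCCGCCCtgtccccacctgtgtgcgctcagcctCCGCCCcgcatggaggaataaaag
Krt20, chr11:99438154-99438403, minus strand: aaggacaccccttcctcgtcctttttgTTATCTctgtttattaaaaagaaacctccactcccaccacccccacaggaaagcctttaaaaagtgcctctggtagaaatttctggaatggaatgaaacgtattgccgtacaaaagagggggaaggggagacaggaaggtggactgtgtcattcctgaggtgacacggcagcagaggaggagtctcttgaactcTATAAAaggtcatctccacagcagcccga
The Krt8 window held 1 GATA match, 239 to 234 bases before the start, and the Krt18 window held 1 AP-2 match, 83 to 75 bases before it, so the neighbouring pair shared no match in these windows. Krt7 held 4 GC boxes and 2 AP-2 matches, 1 of which overlaps a GC box. Krt20 was the only one of the 4 with TATAAA, 29 to 24 bases before the start, and it also held 1 GATA match 223 to 218 bases before the start. Among 32851 mouse promoter windows of the same length, TATAAA occurred in 12.4%, the AP-1 motif in 6.75%, the GC box in 32.7%, the GATA motif in 9.99% and the AP-2 motif in 13.7%. No AP-1 match was found in any of the 4. A match describes letters and is not evidence of binding.

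Facts on the libraries bear on all that follows. The FPKM sums ranged from 424406 to 718138, and no pair of libraries held identical values. Zfp281 was at 25.1 to 38.6 FPKM in the 6 libraries of 3WT and the rescue, at 1.29 to 3.96 FPKM in 3.34Null and at 0 to 0.559 FPKM in 2.6Null, which matches the labels, and at 10.6 and 12.5 FPKM in XENB1 and XEN5. The 11 XEN markers summed to 3.45 to 8.63 FPKM in 3 of the ESC libraries and to 65.6 FPKM in 2.6Null at ESC. They summed to 9.87 to 16.8 FPKM in the Zfp281-present lines at cXENp3, to 963.2 to 1201 FPKM in the KO lines there, and to 1044 to 1430 FPKM in the XEN lines. Library descriptions begin with JH for the ESC libraries of 3WT, 3.34Null and the rescue, and with XH for the other 11 libraries. A batch, if the prefix marks one, is therefore largely confounded with the ESC stage.

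**Figure D1:**
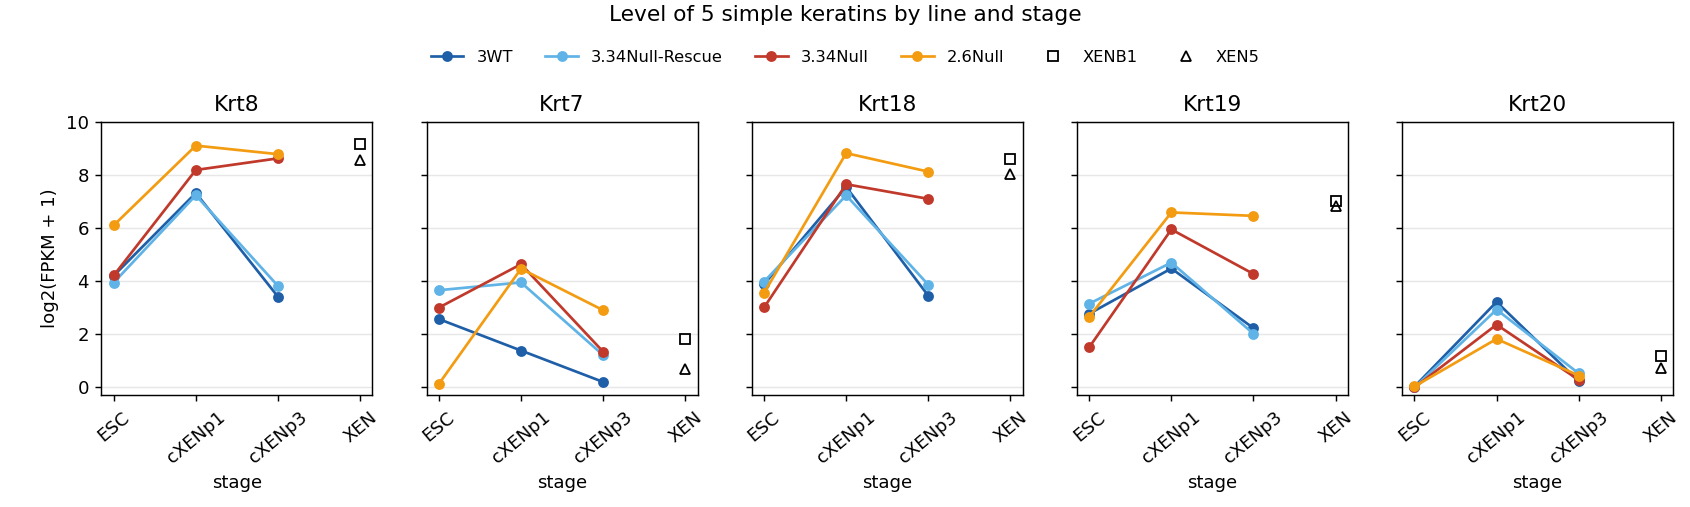
Level of each simple keratin, as log2(FPKM + 1), by stage; each coloured line joins the 3 libraries of 1 cell line and the open symbols are the XEN lines, 1 library per point. Krt8, Krt18 and Krt19 are high at cXENp1 in every line, fall back at cXENp3 in 3WT and 3.34Null-Rescue, and stay higher in the 2 knockout lines, while Krt20 peaks at cXENp1 in all 4 lines.

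Established XEN lines carried far more Krt8, Krt18 and Krt19 than ESCs, and little Krt7 or Krt20. The comparison sets the end of the differentiation against its start. Krt8, the type II partner, was at 573.8 FPKM in XENB1 and 377.0 FPKM in XEN5. The ESC values of Krt8 were 17.5 in 3WT, 14.4 in the rescue, 17.6 in 3.34Null and 67.7 FPKM in 2.6Null. The XEN lines were thus above all 4 ESC libraries, of which 2.6Null was the highest. Krt18, the type I partner, was at 388.3 FPKM in XENB1 and 258.4 FPKM in XEN5, against 13.8 in 3WT, 14.8 in the rescue, 7.06 in 3.34Null and 10.8 FPKM in 2.6Null at ESC. Krt19, a short type I keratin that lacks most of the usual tail domain, was at 127.4 and 112.4 FPKM in XENB1 and XEN5. Its ESC values were 5.84 in 3WT, 7.90 in the rescue, 1.86 in 3.34Null and 5.33 FPKM in 2.6Null, so these groups did not overlap either. The groups did not overlap for 3 of the 4 members that were tested, beside 59.2% of all genes tested.

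On the log2(FPKM + 1) scale the XEN lines exceeded ESCs by 4.25 (SE 0.58, adjusted p = 0.000928) for Krt8, 4.70 (SE 0.32, adjusted p = 4.37e-05) for Krt18 and 4.39 (SE 0.43, adjusted p = 0.000221) for Krt19. These are limma tests with Benjamini-Hochberg adjustment over all genes of the fit, as are all adjusted p-values below. Of the 4 members tested 3 were called, all higher, beside 41.9% of the 12372 genes tested in this comparison, and their median difference was 4.32 beside -0.02 over all genes. Krt7 did not pass the test. It was at 2.58 and 0.640 FPKM in XENB1 and XEN5, and at 4.95, 11.6, 7.03 and 0.0990 FPKM in 3WT, the rescue, 3.34Null and 2.6Null at ESC, a difference of -1.07 (95% interval -3.12 to 0.99, adjusted p = 0.365). Without the 2.6Null ESC library, where Krt7 was near 0, the Krt7 difference was -1.80 with adjusted p = 0.0117. With the description prefix as a term it was 1.14, a change of direction. That fit in effect sets the XEN lines against 2.6Null alone, the only ESC library with their prefix. The Krt8 difference was smaller in that fit, at 2.76. Krt20 was not tested, since only XENB1 reached 1 FPKM among these 6 libraries (1.25 FPKM, with 0.649 FPKM in XEN5 and at most 0.0270 FPKM at ESC).

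After 48 h of retinoic acid and activin A, Krt8, Krt18, Krt19 and Krt20 had risen in all 4 lines, whether or not Zfp281 was present. Krt8 at cXENp1 was at 158.3 FPKM in 3WT, 149.4 in the rescue, 289.6 in 3.34Null and 547.6 in 2.6Null. Each line was at least 8.09 times its own ESC level of Krt8, the smallest ratio being that of 2.6Null, which started highest. Krt18 at cXENp1 was at 185.3, 148.9, 199.3 and 449.8 FPKM in the same order of lines, between 10.0 and 41.8 times the ESC level of each line. Krt19 reached 21.3 and 25.0 FPKM in 3WT and the rescue, and 60.7 and 95.04 FPKM in 3.34Null and 2.6Null. Both KO lines were above both Zfp281-present lines for these 3 genes at cXENp1, where the groups of 2 did not overlap for any of the 5 members and for 47.7% of all genes tested.

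Krt20 was listed at 0 or at most at 0.0270 FPKM in the 4 ESC libraries. It was at 8.31 FPKM in 3WT, 6.63 in the rescue, 4.15 in 3.34Null and 2.55 FPKM in 2.6Null at cXENp1. All 4 of these values exceed those of the other 10 libraries, and here the Zfp281-present lines stood above the KO lines. No fold is given for Krt20, as 2 of its ESC libraries are listed at 0. Krt7 was uneven. At cXENp1 it was at 1.62 FPKM in 3WT, below its ESC level, and at 14.5, 23.9 and 21.1 FPKM in the rescue, 3.34Null and 2.6Null, above theirs.

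With line as a block, 4 of the 5 members were called at cXENp1 against ESC, all higher, beside 28.5% of 13191 genes called. This fit takes in the cXENp3 libraries, so its spread also holds the difference between KO and Zfp281-present lines at cXENp3. The log2 differences were 3.34 (SE 0.76, adjusted p = 0.0125) for Krt8, 4.20 (SE 0.78, adjusted p = 0.00527) for Krt18, 2.90 (SE 0.71, adjusted p = 0.0166) for Krt19 and 2.57 (SE 0.27, adjusted p = 0.000462) for Krt20. The members' median was 2.90, beside 0.00 over all genes. Krt7 differed by 1.27 (95% interval -0.59 to 3.13, adjusted p = 0.271). With the prefix as a term, which leaves 2.6Null as the line with the same prefix at both stages, 3 members were called. Krt18 (5.998, adjusted p = 0.0476) and Krt20 (2.21, adjusted p = 0.0495) kept the call. Krt7 then differed by 4.65 (adjusted p = 0.0264), while Krt8 (3.74, adjusted p = 0.135) and Krt19 (4.70, adjusted p = 0.0617) kept their direction and lost the call. Krt19 also lost it without the line 3.34Null (2.39, adjusted p = 0.104), and Krt8 without the rescue line (3.36, adjusted p = 0.0523).

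Before the passage on feeders, no member passed the limma test between KO and Zfp281-present lines, also where the groups did not overlap at cXENp1. At ESC, 0 of 5 members were called, 0 had an unadjusted p under 0.05, and 1.97% of all 13191 genes were called. The Krt8 difference was 1.08 (95% interval -0.04 to 2.21, adjusted p = 0.259), and it came from 2.6Null at 67.7 FPKM, since 3.34Null at 17.6 FPKM lay beside 3WT at 17.5 FPKM. Without 3.34Null, which leaves 2.6Null as a lone KO library whose spread is assumed to be that of the other groups, the Krt8 difference was 2.03 (adjusted p = 0.00697). The same ESC library had 65.6 FPKM of summed XEN markers, 10.5 FPKM of Gata6 where the other ESC libraries had at most 0.562 FPKM, and 1.86 FPKM of Tfap2c where they had 54.5 to 106.9 FPKM. The part of these in the Krt8 level was not tested.

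At cXENp1, 0 of 5 members were called between KO and Zfp281-present lines, beside 0.485% of all genes, and 3 had an unadjusted p under 0.05. The differences were 1.37 (95% interval 0.24 to 2.49, adjusted p = 0.340) for Krt8, 0.85 (adjusted p = 0.497) for Krt18 and 1.68 (95% interval 0.33 to 3.03, adjusted p = 0.323) for Krt19. Krt20 was -0.98 (95% interval -1.53 to -0.43, adjusted p = 0.137) and Krt7 was 1.88 (adjusted p = 0.542). Without 3.34Null, Krt8 (1.83, adjusted p = 0.0149), Krt18 (1.43, adjusted p = 0.0290) and Krt19 (2.00, adjusted p = 0.0132) were called, and the KO side then rested on 2.6Null alone. That library held 561.7 FPKM of summed XEN markers, while the other 3 at cXENp1 held 53.6 to 60.0 FPKM. The part of this in the keratin levels was not tested.

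At cXENp3 the lines parted. Krt8 was at 392.5 FPKM in 3.34Null and 437.9 FPKM in 2.6Null, and at 9.67 FPKM in 3WT and 13.1 FPKM in the rescue. The KO mean of Krt8 was 36.4 times that of the Zfp281-present lines. Krt18 was at 135.9 and 277.2 FPKM in 3.34Null and 2.6Null, against 9.93 FPKM in 3WT and 13.6 FPKM in the rescue, a ratio of means of 17.6. Krt19 was at 18.3 FPKM in 3.34Null and 86.8 FPKM in 2.6Null, against 3.70 and 3.06 FPKM in 3WT and the rescue, a ratio of 15.6. The groups of 2 did not overlap for 4 of the 5 members, all except Krt20, beside 72.9% of all genes tested. Of these 3 genes the KO lines differed from each other most in Krt19. Against the mean of the 4 ESC libraries, the mean of the Zfp281-present lines at cXENp3 was 38.9% for Krt8, 64.6% for Krt19 and 12.5% for Krt7. For Krt18 it was at the ESC level, with a mean of 11.8 ± 2.57 FPKM (SD, n = 2 lines) beside 11.6 ± 3.48 FPKM over the 4 ESC libraries.

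Of the 5 members 3 were called in KO at cXENp3, all higher, beside 41.9% of all 13191 genes called. The differences were 5.08 (SE 0.51, adjusted p = 0.000177) for Krt8, 3.95 (SE 0.42, adjusted p = 0.000222) for Krt18 and 3.24 (SE 0.61, adjusted p = 0.00285) for Krt19. The median of the 5 was 3.24, beside 0.01 over all genes. Krt7 and Krt20 did not pass. Krt7 was at 1.54 and 6.50 FPKM in 3.34Null and 2.6Null and at 0.155 and 1.33 FPKM in 3WT and the rescue, which is 1.41 on the log2 scale (95% interval -0.83 to 3.66, adjusted p = 0.284). Krt20 was between 0.174 and 0.444 FPKM in all 4 libraries, with a difference of -0.01 (95% interval -0.56 to 0.54, adjusted p = 0.973). Krt19 lost the call without 3WT (3.34, adjusted p = 0.0610). In bulk RNA, fewer cells with a keratin and less of it per cell cannot be told apart, at this stage or any other.

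Cells from the feeder passage could be in the cXENp3 libraries, so their markers are given here. The 10 fibroblast markers, collagens and other stromal genes, summed to 1272 FPKM in the rescue, 36.8 FPKM in 3WT, 296.8 FPKM in 3.34Null and 384.3 FPKM in 2.6Null at cXENp3, and to 647.5 and 562.1 FPKM in XENB1 and XEN5. All 10 reached 1 FPKM in the rescue and 5 did in 3WT. Krt8 was at 13.1 and 9.67 FPKM in the rescue and 3WT, and the part of feeder cells in the keratin levels was not tested. Of 10 fibroblast markers tested, 1 was called higher in KO at cXENp3, beside 41.9% of all genes called. Trophoblast, another keratin-rich cell type of the early embryo, had 12 markers that summed to 7.88 and 14.1 FPKM in the KO lines and to 36.7 and 23.4 FPKM in 3WT and the rescue. Tfap2c, which ESCs also express, made up most of the latter sums, and without it the other markers summed to 6.20 and 12.6 FPKM in 3.34Null and 2.6Null and to 8.41 and 5.08 FPKM in 3WT and the rescue. Tpbpa, a marker of its spongiotrophoblast layer, was listed at 0 in all 14 libraries. Mesothelial markers, 5 genes, summed to 8.80 and 48.7 FPKM in 3.34Null and 2.6Null, and to 3.78 and 9.30 FPKM in 3WT and the rescue. Their part in the keratin levels was not tested.

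**Figure D2:**
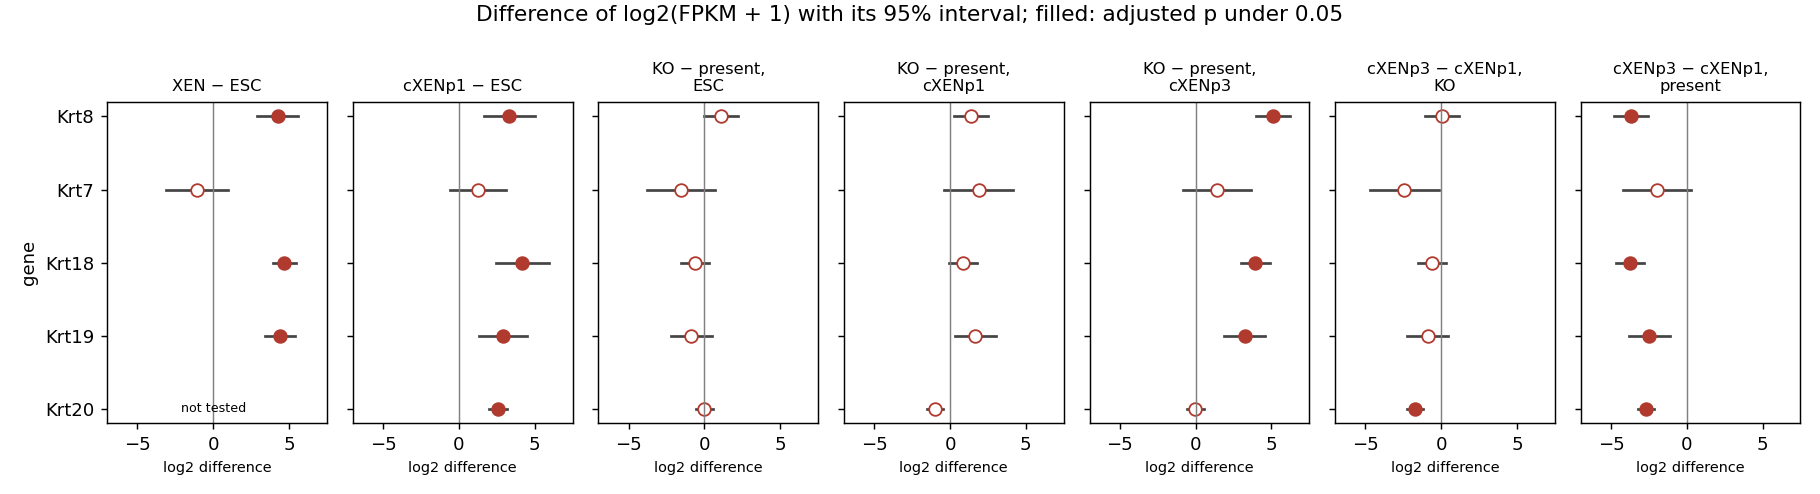
Difference of log2(FPKM + 1) for each simple keratin in 7 comparisons, with its 95% interval from limma; filled points have an adjusted p under 0.05 over all genes. The filled points of Krt8, Krt18 and Krt19 lie to the right in XEN, at cXENp1 and in the KO lines at cXENp3, and to the left for the step from cXENp1 to cXENp3 in Zfp281-present lines.

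The step from cXENp1 to cXENp3 was then read within each genotype. In 3WT, Krt8 at cXENp3 stood at 6.11% of its cXENp1 level, and in the rescue at 8.78%. In 3.34Null it stood at 135.5% and in 2.6Null at 80.0%. For Krt18 the shares were 5.36% and 9.12% in 3WT and the rescue, and 68.2% and 61.6% in 3.34Null and 2.6Null. For Krt19 they were 17.4% and 12.2%, and 30.2% and 91.4%. The KO lines thus kept most of their Krt8 and Krt18, and differed in how much Krt19 they kept. Krt20 was at 14.4% or less of its cXENp1 level in the 4 lines, and Krt7 at 6.46% to 30.8%.

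In the Zfp281-present lines 4 of 5 members were called, all lower, beside 10.9% of all genes called. The differences were -3.66 for Krt8 (adjusted p = 0.00249), -3.73 for Krt18 (adjusted p = 0.000960), -2.46 for Krt19 (adjusted p = 0.0298) and -2.69 for Krt20 (adjusted p = 0.000499). Krt7 was -1.96 (adjusted p = 0.231). Without 3WT no member was called, with adjusted p of 0.196 for Krt8 and 0.120 for Krt18 and differences of -3.41 and -3.36. Without the rescue line 2 members were called, and Krt8 (-3.90, adjusted p = 0.0679) and Krt19 (-2.25, adjusted p = 0.297) were not. In the KO lines 1 of 5 members was called, beside 21.3% of all genes. This was Krt20, at -1.73 (SE 0.25, adjusted p = 0.00128). Krt8 was at 0.06 (95% interval -1.07 to 1.18), Krt18 at -0.62 (-1.55 to 0.30), Krt19 at -0.90 (-2.25 to 0.45) and Krt7 at -2.43 (adjusted p = 0.116). Without 2.6Null, Krt19 was called too (-1.68, adjusted p = 0.0127).

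The difference between these changes was tested itself, as an interaction. Here 2 of 5 members were called, beside 11.4% of all genes: Krt8 at 3.71 (SE 0.72, adjusted p = 0.0151) and Krt18 at 3.10 (SE 0.59, adjusted p = 0.0142). Krt19 was at 1.56 (95% interval -0.35 to 3.47, adjusted p = 0.232) and Krt20 at 0.97 (adjusted p = 0.0916). Krt7 was at -0.47 (adjusted p = 0.846) and turned positive with a pseudocount of 0.1, at 0.28. Neither call of Krt8 or Krt18 held without 3WT (adjusted p = 0.315 and 0.326) or without the rescue (0.0988 and 0.0883), with differences of 2.74 to 3.96 in these fits. Leaving out 3.34Null called Krt19 as well (2.33, adjusted p = 0.0140). The fall of Krt20 in both genotypes thus had no called difference between them.

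Against the established XEN lines, the KO lines at cXENp3 had 73.7% of the mean summed keratin FPKM. By gene, the KO mean was 87.3% of the XEN mean for Krt8, 63.9% for Krt18 and 43.8% for Krt19. None of 5 members was called by limma, beside 4.12% of 13386 genes, and 2 had an unadjusted p under 0.05. The differences were -0.17 for Krt8 (95% interval -1.26 to 0.93), -0.70 for Krt18 (-1.61 to 0.21) and -1.55 for Krt19 (-2.82 to -0.29, adjusted p = 0.161). Krt20 was at -0.58 (adjusted p = 0.233) and Krt7 at 0.85 (adjusted p = 0.689). Krt8 was 0.14 higher in KO when XENB1 was left out. Without 2.6Null, Krt19 was called lower (-2.64, adjusted p = 0.00282), as 3.34Null had 18.3 FPKM where the XEN lines had 127.4 and 112.4 FPKM.

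The balance of the chains was followed as the ratio of summed type I FPKM (Krt18, Krt19, Krt20) to summed type II FPKM (Krt7, Krt8). In the Zfp281-present lines this ratio was 0.877 and 0.872 at ESC, 1.34 and 1.10 at cXENp1 and 1.40 and 1.18 at cXENp3, each as 3WT and the rescue. In 3.34Null it was 0.363, 0.842 and 0.392 over the 3 stages, and in 2.6Null 0.238, 0.962 and 0.820. XENB1 and XEN5 stood at 0.897 and 0.984. At every stage both KO lines were below both Zfp281-present lines in this ratio of levels, a description without a test. Krt8 alone against Krt18 gave ratios of 0.854 to 1.27 in the 6 Zfp281-present libraries and 1.22 to 6.28 in the 6 KO libraries, whose highest values were 2.6Null at ESC and 3.34Null at cXENp3 (2.89).

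**Figure D3:**
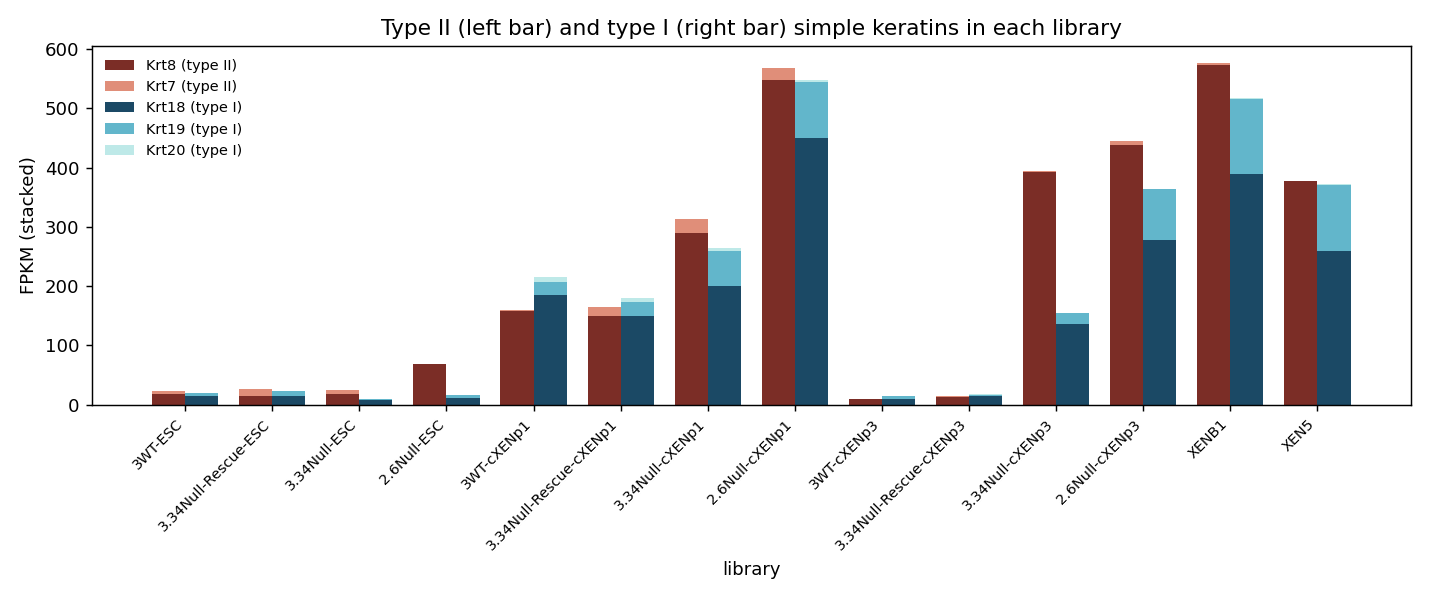
FPKM of the type II keratins Krt8 and Krt7 (left bar, stacked) and of the type I keratins Krt18, Krt19 and Krt20 (right bar, stacked) in each of 14 libraries, 1 bar pair per library. Type II exceeds type I in all 6 knockout libraries, most visibly in 3.34Null at cXENp3. It also does in the Zfp281-present lines at ESC and in both XEN lines. Krt8 with Krt18 makes up most of every pair.

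Levels per length also order the genes. Krt8 and Krt18 together made up 59.9% (the rescue at ESC) to 96.3% (3.34Null at cXENp3) of the summed keratin FPKM. Krt8 was the most abundant of the 5 in 10 libraries of the 14, with Krt18 above it in the rescue at ESC, in 3WT at cXENp1 and in both Zfp281-present lines at cXENp3.

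Across the 14 libraries, the order of Krt8 levels ran from 9.67 FPKM in 3WT at cXENp3 to 573.8 FPKM in XENB1. The low end held the ESC and Zfp281-present cXENp3 libraries. The 3 lower ESC libraries spanned 14.4 to 17.6 FPKM, and 3WT and the rescue at cXENp3, at 9.67 and 13.1 FPKM, lay below them by an amount that was not tested. Krt18 ranged from 7.06 FPKM (3.34Null at ESC) to 449.8 FPKM (2.6Null at cXENp1), and Krt19 from 1.86 FPKM (3.34Null at ESC) to 127.4 FPKM (XENB1). Krt7 was highest in 3.34Null at cXENp1 (23.9 FPKM) and Krt20 in 3WT at cXENp1 (8.31 FPKM), so neither peaked in XEN cells.

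As a description over these 14 libraries, which share lines, the log2 levels of Krt8 and Krt18 had a Pearson correlation of 0.943. Krt18 and Krt19 had 0.953 and Krt8 and Krt19 had 0.914. Krt7 stood apart, with correlations of 0.211 to 0.386 to the other 4, and Krt20 had 0.467 to 0.623 to Krt8, Krt18 and Krt19.

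Among 13364 other genes, those whose pattern was most like each member were listed by the same correlation. For Krt8 they were Vamp8 (0.958), a vesicle fusion protein, Atf3 (0.958), a stress-induced transcription factor, and Dgkk (0.956), a diacylglycerol kinase. Atf3 was at 72.6 and 81.6 FPKM in 3.34Null and 2.6Null at cXENp3, and at 1.03 and 1.43 FPKM in 3WT and the rescue. For Krt18 they were Amotl2 (0.969), a junction-linked angiomotin, Letmd1 (0.965) and Ctdsp1 (0.956), a small phosphatase. For Krt19 they were Pld2 (0.950), a phospholipase, Efna4 (0.935), an ephrin ligand, and Ccdc120 (0.932).

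For Krt7 the closest were Cdcp1 (0.873), Ptpn18 (0.850) and Tha1 (0.840), all at most at 3.83 FPKM, and these correlations are lower than those of the other members. For Krt20 they were Hoxc8 (0.986), a homeobox factor, Slc16a12 (0.973) and Aldh1a7 (0.972). Hoxc8 was at 27.7, 18.3, 20.4 and 7.65 FPKM at cXENp1 in 3WT, the rescue, 3.34Null and 2.6Null and at most at 2.85 FPKM in any other library. It thus shared with Krt20 the peak at cXENp1 and the lowest of the 4 values in 2.6Null.

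The table holds 45 other keratin genes, and 39 of them stayed low, with 0.799 FPKM as their highest value. The other 6 reached 1 FPKM in at least 2 libraries. Krt23, a type I keratin, was at 21.3 and 28.4 FPKM in 3.34Null and 2.6Null at cXENp3, at 8.91 and 7.16 FPKM in XENB1 and XEN5, and at most at 0.440 FPKM elsewhere. It was called higher in KO at cXENp3 (4.44) and in KO at cXENp3 than in XEN (1.51, adjusted p = 0.0117), which no simple keratin was. Krt23 was not at its cXENp3 level at cXENp1 (at most 0.192 FPKM), whereas Krt8 and Krt18 were already high there.

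Krt17, a keratin of basal and injured epithelium, and its neighbour Krt42 ran the other way in XEN and at cXENp1, each against ESC. Krt17 was at 39.9 FPKM and Krt42 at 24.8 FPKM in 2.6Null at ESC, and both were at 4.14 to 8.53 FPKM in the other ESC libraries. Krt17 was lower in XEN than in ESC (-3.34) and at cXENp1 (-2.80), as was Krt42 (-3.08 and -2.90). In KO at cXENp3, Krt42 was called lower (-1.89, adjusted p = 0.0215) and Krt17 was not called (-0.16, adjusted p = 0.875). Krt6a reached 10.3 FPKM and Krt14, the type I keratin of basal epidermis, 3.20 FPKM in 2.6Null at cXENp3, and both were called higher in KO there (2.48 and 1.46). The Krt6a row covers a locus shared with several genes, so its value may not be that of Krt6a alone. Krt10 stayed at 0.485 to 1.29 FPKM in all 14 libraries.

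**Figure D4:**
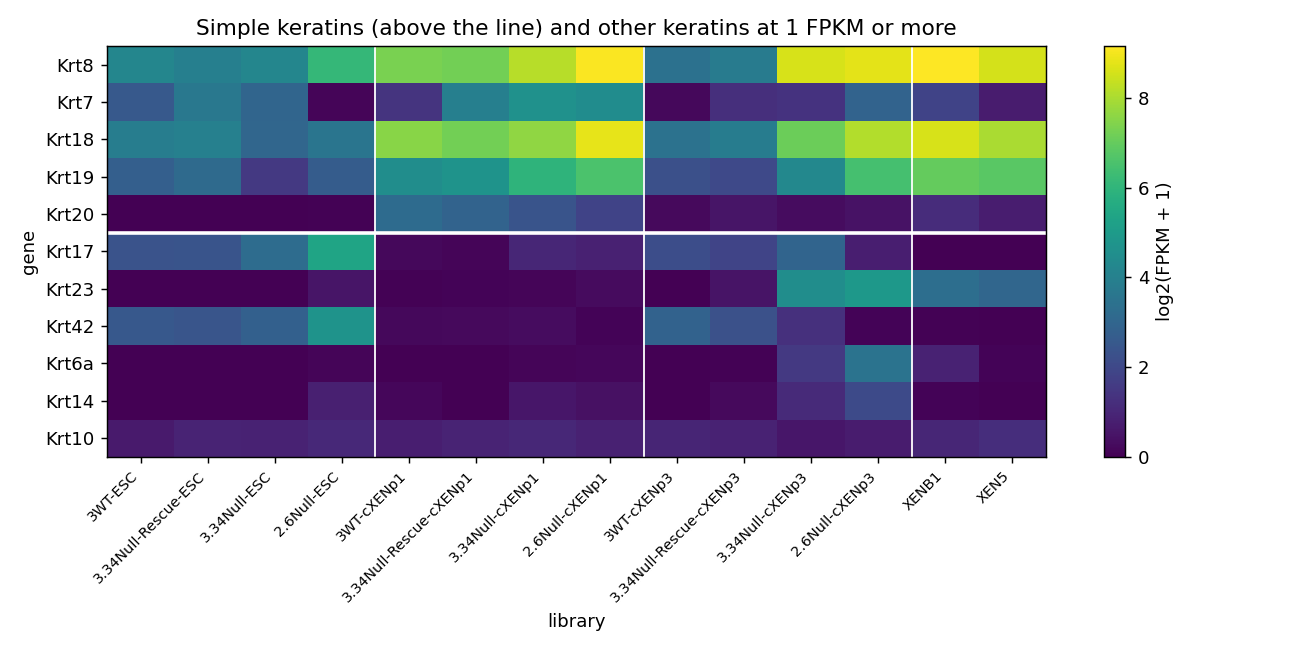
Heat map of log2(FPKM + 1) for the 5 simple keratins (above the white line) and the 6 other keratins that reached 1 FPKM in at least 2 libraries, over 14 libraries. Krt8, Krt18 and Krt19 are bright at cXENp1, in the KO lines at cXENp3 and in XEN, Krt23 is bright from cXENp3 in KO, and Krt17 and Krt42 are brightest in 2.6Null at ESC.

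Genes that anchor keratin filaments were read from a list of 17 desmosome, hemidesmosome and plakin genes. At cXENp3, 6 of the 15 tested rose in KO against Zfp281-present lines and 1 fell, which is 7 of 15 beside 41.9% of all genes, with a median of 0.51 beside 0.01 over all genes. Fam83h, a scaffold that recruits casein kinase to keratin filaments, rose by 3.13 (16.4 and 20.6 FPKM in 3.34Null and 2.6Null, 0.887 and 1.60 FPKM in 3WT and the rescue). Dsp (desmoplakin), which ties keratins to desmosomes, rose by 1.83, and the cytolinkers Plec and Dst rose by 1.76 and 1.47. At cXENp1 against ESC, 4 rose and 2 fell of 15, beside 28.5% of all genes called. Among those that rose were Dsp (2.41), the desmosomal cadherin Dsc2 (2.72) and the plakin Ppl (2.00). In XENB1 and XEN5, Dsp was at 9.50 and 7.09 FPKM, while Dsc2 and Ppl were at most at 0.644 FPKM. In XEN against ESC, 2 rose and 2 fell of 12, beside 41.9% of all genes called, with Fam83h higher by 1.77 and Dsg2, a desmosomal cadherin, at -1.96. At ESC and cXENp1 no gene of the list was called between KO and Zfp281-present lines, beside 1.97% and 0.485% of all genes.

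Of 13 other intermediate filament genes, 12 were tested at cXENp3. In KO, 2 rose and 5 fell, beside 41.9% of all genes called, with a median of -0.77. The lamin gene Lmna rose by 2.44, and the neuronal filament genes Ina, Prph and Nefh were at -3.06, -2.19 and -2.13. In XEN against ESC, 3 rose and 4 fell of 11, beside 41.9% of all genes called. Vim (vimentin), the filament of mesenchymal cells, was higher by 3.74 there, by 1.91 at cXENp1 against ESC and by 1.87 in KO at cXENp3. Krt8 was higher in these comparisons too, but the step from cXENp1 to cXENp3 differed. Vim rose there in the rescue (104.1 to 426.9 FPKM), 3.34Null (134.8 to 832.4 FPKM) and 2.6Null (190.7 to 937.3 FPKM), and fell in 3WT (184.1 to 136.1 FPKM). Krt8 fell in 3WT, the rescue and 2.6Null and rose in 3.34Null. The fibroblast markers at cXENp3 summed to 1272 FPKM in the rescue, 296.8 FPKM in 3.34Null, 384.3 FPKM in 2.6Null and 36.8 FPKM in 3WT. The part of feeder cells in the Vim levels was not tested.

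Epithelial adhesion and polarity genes, a list of 18, moved in both directions. In KO at cXENp3, 3 rose and 1 fell of the 18 tested, a smaller share than the 41.9% of all genes called, with a median of 0.37. The splicing regulator Esrp2 (2.38) and the membrane protease St14 (1.69) were among those that rose, and Cdh1, which encodes E-cadherin, was at -1.20. Cdh1 was at 4.28 and 0.610 FPKM in XENB1 and XEN5 and at 77.5 to 196.4 FPKM at ESC, so XEN lines with high Krt8 had little of it. The KO lines also had high Krt8 after ESC, with more Cdh1. In 3.34Null and 2.6Null, Cdh1 was at 184.3 and 159.5 FPKM at cXENp1 and at 39.9 and 41.3 FPKM at cXENp3. In XEN against ESC, 2 of 17 rose and 7 fell, beside 41.9% of all genes called, with a median of -0.90.

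Transcription factors known or proposed to act on simple keratin genes were a list of 24, of which 9 rose and 4 fell among 23 tested in KO at cXENp3 (median 0.61), beside 41.9% of all genes called. Gata6, an endoderm factor that is also among the 11 XEN markers, rose by 5.59. Jun, a subunit of AP-1, which is known to bind an enhancer in the first intron of human KRT18, rose by 3.06, while Tfap2c was at -3.21. Jun was at 39.9 to 65.0 FPKM at cXENp1 in the 4 lines, against 1.37 to 6.34 FPKM at ESC. At cXENp3 it was at 57.0 and 56.0 FPKM in 3.34Null and 2.6Null, and at 2.91 and 11.1 FPKM in 3WT and the rescue. The part of Jun in the keratin levels was not tested.

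The lists for cell identity give the state of the cells beside the keratins. At cXENp3 10 of 11 XEN markers rose in KO, led by Gata4 (7.83) and Sox17 (6.89), and all 8 pluripotency markers fell, led by Nanog (-4.82), where 41.9% of all genes were called. At cXENp1 against ESC, 2 of 11 XEN markers were called, both higher, beside 28.5% of all genes, and the median over the 11 was 2.04. Of 8 trophoblast markers tested at cXENp3, 2 rose and 2 fell, of 3 stratified epithelium markers 1 rose (Krt14), of 4 mesothelial markers 1 rose (Msln, 3.45), and of 6 definitive endoderm and gut markers 1 rose (Sox17) and 3 fell.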

How the data were processed

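PolyA RNA-seq of 14 mouse libraries was analysed from 1 table of FPKM per gene locus that the authors deposited. The labels do not state the unit, and it was taken as FPKM from the values and from the tools named. The submitters' processing notes name STAR 2.5.3, Cufflinks 2.1.1 and mm9, with no role or order. Starts in the table count from 0 and were shifted by 1. The 5 genes, the gene lists and the tests were chosen with earlier results of these data known.

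The scale of all tests was log2(FPKM + 1), on which changes of low genes look smaller than they are. Genes with at least 1 FPKM in at least 2 fitted libraries were kept. limma 3.58.1 (R 4.3.3; lmFit, eBayes with trend) was fitted to all genes, with calls made under 0.05 after Benjamini-Hochberg adjustment of the p-values over all of them. XEN was compared with ESC over 6 libraries, cXENp1 with ESC over 12 with line as a block since each line gave every stage (deviations of a line from its group mean correlated between stages at -0.216 to 0.347), KO with Zfp281-present lines in 6 groups of 2, and KO at cXENp3 with XEN in 7 groups of 2. The comparisons share libraries. Named genes are the 5 members, other keratins at 1 FPKM in 2 libraries, up to 4 called genes per list with the largest change in KO at cXENp3, and the 3 genes most correlated with each member. Other genes named from the lists (Dsc2, Ppl, Dsg2, Vim, Tpbpa) were chosen after their values were seen. The results of 2 list genes that this rule selects are not reported here. Alternatives covered the pseudocount, filters, scaling, trend, blocks, prefix and leaving out each line.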

Additional observations from a re-analysis of the deposited data

Results flagged for a closer look

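Krt8 at ESC was 67.7 FPKM in 2.6Null and 14.4 to 17.6 FPKM in the other 3 lines, a gap to the nearest of 0.940 of the range. Krt18 at cXENp1 was 449.8 FPKM in 2.6Null and 148.9 to 199.3 FPKM in the other 3 lines, a gap of 0.832 of the range, just over the critical value of Dixon's test for 4 samples. Chance flags about 1 in 20 such groups, and 12 groups of 4 were examined. The change of Krt8 from cXENp1 to cXENp3 differed between KO and Zfp281-present lines by 3.71, and that of Krt18 by 3.10, by the interaction term of limma (adjusted p = 0.0151 and 0.0142).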

How the results depend on the processing

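Each line is 1 library per stage and the depth behind low values is unknown, which limits Krt7 and Krt20 most. Of 528 values of single members under an alternative, 486 kept their direction and side of the threshold, 16 lost the call, 10 gained it and 16 changed sign. The values that changed sign lay near 0 or were not called: Krt7 in XEN against ESC (1.14 with the prefix), Krt20 in KO at ESC (-0.0183 with quantile normalization, -0.0145 with the prefix, -0.0145 to 0.0240 leaving out a line), Krt20 in KO at cXENp3 (0.0522 with quantile normalization, 0.0138 with equal FPKM sums, -0.16 to 0.14 leaving out a line), Krt8 from cXENp1 to cXENp3 in KO (-0.24 with quantile normalization, -0.0018 with equal sums, -0.32 to 0.44 leaving out a line), the Krt7 interaction (0.28 with a pseudocount of 0.1, -1.33 to 0.40 leaving out a line) and Krt8 in KO at cXENp3 against XEN (-0.47 to 0.14 leaving out a line, the latter without XENB1). The fall of Krt19 from cXENp1 to cXENp3 in Zfp281-present lines lost its call without a filter (adjusted p = 0.0579). The Krt20 interaction was called with quantile normalization (1.18, adjusted p = 0.0473). With a mean of at least 5 FPKM required, Krt20 was not tested and 0 members were called from cXENp1 to cXENp3 in KO. Leaving out a line gave 0 to 1 called members in KO at ESC, 0 to 3 in KO at cXENp1, 1 to 2 from cXENp1 to cXENp3 in KO, 0 to 4 in Zfp281-present lines, 0 to 3 in the interaction and 0 to 1 in KO at cXENp3 against XEN. Scaling libraries to equal FPKM sums moved the median of all genes by 0.46 at cXENp1 against ESC and the summed keratin ratio from 11.6 to 16.3. The fits with line as a replicate block or without it changed no call of a member: 4 were called at cXENp1 against ESC without the block and, with it, 0 in KO at ESC and at cXENp1, 3 in KO at cXENp3, 1 from cXENp1 to cXENp3 in KO, 4 in Zfp281-present lines and 2 in the interaction. The number of all genes called depended on the fit, from 439 to 5190 at cXENp1 against ESC, 1 to 1993 in KO at ESC, 4 to 638 in KO at cXENp1, 1057 to 6150 in KO at cXENp3, 2098 to 6235 in XEN against ESC, 1462 to 3317 from cXENp1 to cXENp3 in KO, 54 to 2594 in Zfp281-present lines, 5 to 2362 in the interaction and 87 to 881 in KO at cXENp3 against XEN. Every member has 1 row, so summing duplicate rows was not run.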
